A study of Mus musculus with 6 samples.

Results

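The *CDX* genes and a set of gut differentiation genes were examined in bone marrow in which human CDX2 had been switched on. The set held 9 mouse genes chosen by name, with earlier results of these data known, out of 39179 genes in the count files. *Cdx1*, *Cdx2* and *Cdx4* are the 3 members of the caudal-type homeobox family, and *Cdh17*, *Lgals4*, *Vil1*, *Muc13*, *Krt20* and *Hnf4a* are genes of the intestinal epithelium.

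RNA-seq had been performed on whole bone marrow of 6 littermate mice, 3 *MxCDX2* and 3 controls. The *MxCDX2* mice carried *RsCDX2*, the human *CDX2* coding sequence behind a loxP-flanked stop at *Rosa26*, together with *Mx1Cre*, in which the interferon-inducible *Mx1* promoter drives Cre. Control 1 had *RsCDX2* alone, control 2 had *Mx1Cre* alone and control 3 was wild type, so that each control genotype was present once. All 6 mice were 3 months old when they were injected 3 times intraperitoneally with poly(I:C) at 10 µg per g of body weight, and marrow was taken 6 weeks later. The injections were daily per the labels and every other day per the methods. *Mx1Cre* acts in any cell that responds to interferon, so that recombination need not be limited to 1 blood lineage.

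CDX proteins bind AT-rich DNA and set positional identity along the embryonic axis, in part through the *Hox* genes. In the adult, *Cdx1* and *Cdx2* remain active in the epithelium of the intestine, where CDX2 acts with factors such as HNF4A to switch on genes of the brush border and of cell adhesion, while *Cdx4* is an embryonic gene. Adult blood cells do not normally use *CDX2*, and it is switched on aberrantly in human acute leukemia.

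Between 38646101 and 49899650 reads per mouse had been counted on genes, so that 3 reads in 1 mouse stood for 0.0601 to 0.0776 CPM, the usual scaling of counts to library size. The libraries held marrow RNA in both groups. *Ptprc*, the common leukocyte antigen, had 24601 to 34427 reads in control mice and 26987 to 37370 in *MxCDX2* mice. The summed level of 6 erythroid markers was 1404900 to 1738800 normalized counts in control mice and 41884 to 160890 in *MxCDX2* mice, and that of 6 monocyte markers was 42980 to 78671 and 287510 to 335040. From RNA counts of whole marrow alone, fewer cells of a type and less RNA per cell cannot be told apart. By flow cytometry, the study reported a strong drop of erythroid cells and more monocytes and macrophages in *MxCDX2* marrow. It also reported many monoblasts on marrow smears 6 weeks after poly(I:C). Epithelial markers were uneven. Of 6 such genes, *Elf3* had at most 1 read in a mouse, *Cldn7* at most 5 and *Krt8* at most 9, whereas *Epcam* had 18 to 152, *Krt18* 122 to 230 in control and 14 to 56 in *MxCDX2* mice, and *Cdh1* 554 to 963 and 90 to 171. The summed level of the 6 was 785 to 1171 normalized counts in control mice and 189 to 306 in *MxCDX2* mice. The 7 liver markers summed to 10.2 to 37.4 normalized counts in control and 9.53 to 34.3 in *MxCDX2* mice, with at most 1 read of *Alb*, none of *Tat*, 7 to 20 of *Apoa2*, up to 25 of *Apoa1* and up to 9 of *Ahsg*.

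The start regions of the members whose marrow RNA was highest are shown first, since CDX proteins act through such sequences. RefSeq (GRCm38.p6) windows of 250 bases before to 50 bases after the gene start were used for 7 of the 9 members, 9 windows in all. No window of *Cdx1* or *Cdh17* was used. They were searched on both strands for 4 CDX-type words, namely ATTTATG as the first word, ATTTATA as its variant, CTTTATG as the next word and CTTTATA as its variant, which overlaps the letters of the TATA box when read on the opposite strand. A match occurred in 1 of the 9 windows (11.1%), against 12.5% of 32851 windows of the same length over all genes. The match, in capitals, was CATAAAT in *Muc13*, which is ATTTATG on the opposite strand and begins at base -180 from the gene start. *Lgals4* and *Hnf4a*, which has alternative upstream and downstream starts, had no match in these windows.
*Muc13*, start 1 (chr16:33793787-33794086, plus strand): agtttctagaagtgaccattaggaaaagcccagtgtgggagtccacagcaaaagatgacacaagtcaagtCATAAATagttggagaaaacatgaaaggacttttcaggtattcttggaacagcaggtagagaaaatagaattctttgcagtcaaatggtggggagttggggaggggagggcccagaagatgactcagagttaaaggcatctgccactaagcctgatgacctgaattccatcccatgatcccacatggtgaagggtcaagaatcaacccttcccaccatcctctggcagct
*Lgals4* (chr7:28833544-28833843, plus strand): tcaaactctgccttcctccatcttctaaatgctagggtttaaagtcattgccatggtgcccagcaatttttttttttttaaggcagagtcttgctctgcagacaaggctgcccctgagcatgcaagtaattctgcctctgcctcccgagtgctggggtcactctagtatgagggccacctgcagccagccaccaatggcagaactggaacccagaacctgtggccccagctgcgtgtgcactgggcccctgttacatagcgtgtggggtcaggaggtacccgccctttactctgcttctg
*Hnf4a*, start 1 (chr2:163506607-163506906, plus strand): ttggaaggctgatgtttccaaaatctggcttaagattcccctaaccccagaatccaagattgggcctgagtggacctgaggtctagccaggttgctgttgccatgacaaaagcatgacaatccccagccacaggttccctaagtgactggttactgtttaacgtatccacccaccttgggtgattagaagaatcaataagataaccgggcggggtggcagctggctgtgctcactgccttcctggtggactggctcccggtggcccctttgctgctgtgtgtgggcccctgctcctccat
*Hnf4a*, start 2 (chr2:163546905-163547204, plus strand): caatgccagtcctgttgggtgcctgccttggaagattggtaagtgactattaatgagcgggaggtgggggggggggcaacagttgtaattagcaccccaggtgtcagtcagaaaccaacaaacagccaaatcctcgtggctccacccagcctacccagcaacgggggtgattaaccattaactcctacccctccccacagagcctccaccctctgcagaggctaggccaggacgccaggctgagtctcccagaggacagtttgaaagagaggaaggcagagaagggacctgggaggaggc

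Across the 9 members, 2 had no read in any mouse, 2 had too few reads for a test and 5 were tested. A gene was called changed when its log2 fold change was beyond 1 in either direction and its p, adjusted by Benjamini-Hochberg over the 15980 tested genes, was below 0.05 in the quasi-likelihood test of edgeR. By this rule 2 of the 5 tested members rose, *Cdx2* and *Lgals4*, against 4.59% of all tested genes, and 0 fell, against 9.03% of all tested genes. The *MxCDX2* mice were made to express *CDX2*, so that a rise of *Cdx2* was set by the design. *Lgals4* was the only other tested member to rise. *Hnf4a*, *Muc13* and *Cdh17* were tested and did not pass in this fit, although *Hnf4a* passed with DESeq2, the tool the study used. The 3 *MxCDX2* mice all lay above the 3 controls in 4 of the 9 members, *Cdx2*, *Lgals4*, *Vil1* and *Hnf4a*. Of the 5 tested members 3 showed this separation, against 21.4% of all tested genes, and 0 showed the reverse, against 20.7%. The 3 include *Cdx2*, whose separation was likewise set by the design. The values of each mouse are drawn in the plot of the 9 members.

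**Figure D1:**
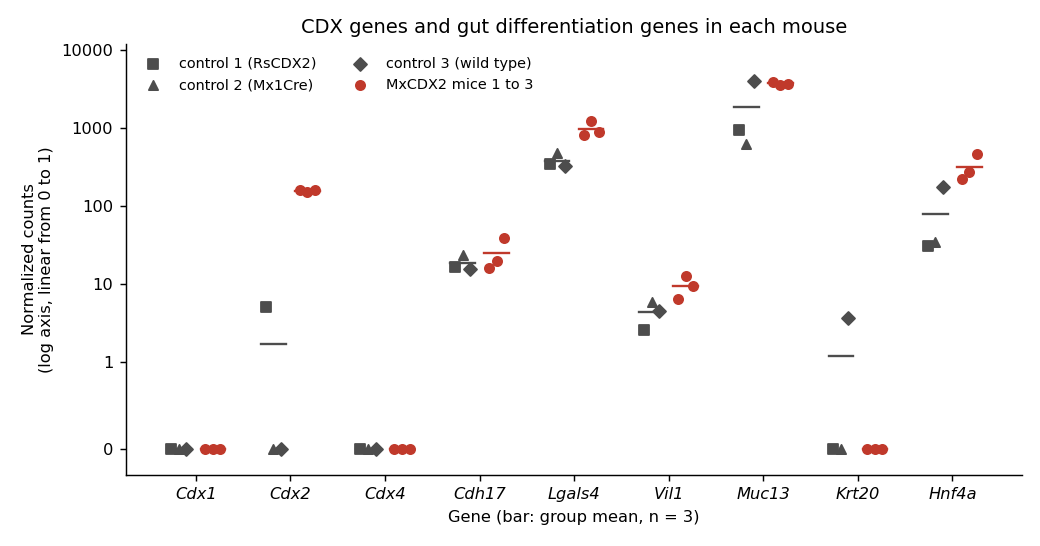
Normalized counts of the 9 genes (y axis, logarithmic above 1 and linear below) in each of the 6 mice (x axis, by gene), with gray symbols for the 3 control genotypes, red circles for the 3 *MxCDX2* mice and bars for group means. *Cdx1* and *Cdx4* lie at 0 in all 6 mice, *Cdx2* and *Lgals4* are separated between groups, and the wild-type control lies at the level of the *MxCDX2* mice for *Muc13*.

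*Cdx1* (ENSMUSG00000024619, chr18:61018862-61036199 in GRCm38, minus strand) had 0 reads in all 6 mice. *Cdx4* (ENSMUSG00000031326, chrX:103321398-103330592, plus strand) also had 0 reads in all 6 mice. These counts of 0 allow a level of up to 0.0776 CPM in the shallowest library, counting error only. Neither paralog was detectable at this depth in marrow that carried the human *CDX2* transgene.

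*Cdx2* (ENSMUSG00000029646, chr5:147300805-147307270, minus strand) had 4 reads in the *RsCDX2* control and 0 in the *Mx1Cre* and wild-type controls. The *MxCDX2* mice had 152, 155 and 183 reads. Scaled for library size, the level in *MxCDX2* mice was nearly the same in the 3 animals, at 161, 152 and 159 normalized counts. The group means were 1.70 ± 2.95 (SD, n = 3) in control and 157 ± 4.87 (SD, n = 3) in *MxCDX2* mice, and the fitted log2 fold change was 6.64 ± 0.95 (SE, adjusted p = 0.00537, edgeR quasi-likelihood test, Benjamini-Hochberg adjusted). The groups did not overlap, and the smallest two-sided p that 3 mice against 3 allow in an exact permutation test is 0.10.

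The size of the *Cdx2* rise depended on which control it was set against. Against the *Mx1Cre* and wild-type controls, both at 0, the mean of the *MxCDX2* mice was at least 55.1-fold higher, with 3 reads per library taken as the floor. Against the *RsCDX2* control, which carries the transgene with its stop in place, it was 30.8-fold higher on 4 reads, whose exact Poisson 95% interval ran from 1.09 to 10.2 reads. With the reads of each group pooled and scaled by library size, the ratio was 114 with a 95% interval of 44.1 to 418, for counting error only. *Cdx2* passed in all 6 leave-one-out fits, with log2 fold changes from 6.03 to 10.37, the highest of these without the *RsCDX2* control. The files hold mouse genes only, so that transcripts of the human transgene and of mouse *Cdx2* cannot be separated.

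The *Cdx2* signal counted on the mouse gene was modest in level although its fold change was large. It ranked 20 of 15980 genes by log2 fold change and 777 by p, and its mean level lay at percentile 22.9 of the tested genes. In RPKM, the reads scaled to library size and to the annotated mouse exon length, *Cdx2* stood at 1.48 to 1.57 in *MxCDX2* mice. The same scale gave 7.79 to 11.8 for *Lgals4*, 25.9 to 28.4 for *Muc13* and 1.03 to 2.10 for *Hnf4a* in these mice. The human coding sequence is shorter than the mouse exons used for this scaling, so that the RPKM of *Cdx2* depends on that length. Reads were aligned to the mouse genome only, so that human reads that differ from the mouse sequence can be missed. The counted level therefore need not be that of the human *CDX2* RNA.

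The genes next to the 3 *Cdx* loci were also examined. The transgene lies at *Rosa26*, so that neighbors of the mouse *Cdx2* locus cannot show how far its signal reaches. Of the 18 nearest protein-coding genes, 3 on each side of each locus, 5 had no reads, 10 were tested, 3 rose, against 4.59% of all tested genes, and 0 fell, against 9.03% (edgeR quasi-likelihood test, Benjamini-Hochberg adjusted), with a median log2 fold change of 0.61 against 0.00 over all tested genes. Beside *Cdx2*, the ParaHox genes *Pdx1* and *Gsx1* and the gene *Urad* had 0 reads in all 6 mice. *Polr1d* (0.33, adjusted p = 0.0734), *Flt3* (-1.10, adjusted p = 0.126) and *Pan3* (0.06, adjusted p = 0.838) did not pass. None of the 6 genes flanking *Cdx2* was called.

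The 3 neighbors that rose all flank *Cdx1*, which itself had no read. *Csf1r*, the receptor for macrophage colony-stimulating factor, had 5184, 10150 and 10222 reads in control and 29754, 41024 and 43991 in *MxCDX2* mice, with a rise of 2.08 on the log2 scale (adjusted p = 0.00196). It is also one of the 6 monocyte markers above, of which 5 rose, against 4.59% of all tested genes. *Camk2a*, a calcium-dependent kinase gene, rose by 1.64 (adjusted p = 0.00377), and *Arsi*, a sulfatase gene, by 2.02 (adjusted p = 0.0395), *Arsi* passing in 2 of 6 leave-one-out fits. *Pdgfrb* (0.62, adjusted p = 0.280) and *Hmgxb3* (0.60, adjusted p = 0.0220) did not pass both thresholds. Around *Cdx4*, *Nap1l2* (0.87, adjusted p = 0.303) and *Chic1* (-1.39, adjusted p = 0.239) were the tested neighbors and did not pass.

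**Figure D2:**
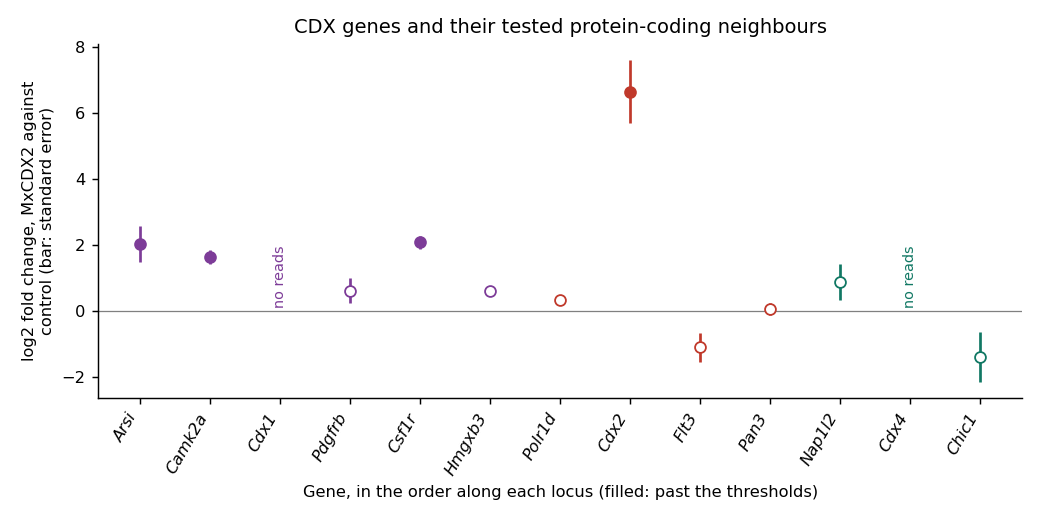
Log2 fold change, *MxCDX2* against control, with its standard error (y axis) for *Cdx2* and the tested neighbors of *Cdx1* (purple), *Cdx2* (red) and *Cdx4* (green), in the order along each locus (x axis), filled where a gene passed both thresholds. *Cdx2* stands at 6.64 between neighbors of the mouse locus, which is not that of the transgene, that did not pass. *Cdx1* and *Cdx4* themselves carry no reads.

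*Lgals4* (ENSMUSG00000053964, chr7:28833854-28841708, plus strand) encodes galectin-4, a sugar-binding lectin of the gut epithelium. It had 342, 477 and 330 normalized counts in controls 1, 2 and 3 and 820, 1241 and 881 in *MxCDX2* mice 1, 2 and 3. The groups did not overlap. Controls averaged 383 ± 81.3 (SD, n = 3) and *MxCDX2* mice 981 ± 228 (SD, n = 3), for a log2 fold change of 1.36 ± 0.24 (SE, adjusted p = 0.0104, edgeR quasi-likelihood test, Benjamini-Hochberg adjusted). *Lgals4* passed in all 6 leave-one-out fits, with log2 fold changes from 1.16 to 1.54. The gene was already present in the controls, at 3.14 to 4.53 RPKM.

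Other galectin, villin, mucin and cadherin relatives of the members did not move together. Of 17 relatives found in the files, 12 were tested, 2 rose, 1 fell and 9 did not pass, with a median log2 fold change of 0.06. Over all tested genes, 4.59% rose and 9.03% fell. *Lgals1*, the gene of galectin-1, rose by 1.71 on the log2 scale (adjusted p = 0.00156), whereas *Lgals3* (0.50, adjusted p = 0.0792) and *Lgals9* (-0.14, adjusted p = 0.410) did not pass. Among relatives of villin, the actin-capping gene *Capg* rose by 1.06 (adjusted p = 0.00348), *Gsn*, the gene of the actin-severing protein gelsolin, fell by 1.29 (adjusted p = 0.00395), and the villin-like gene *Vill* stood at 0.65 (adjusted p = 0.0716). *Cdh16*, the kidney relative of *Cdh17*, had 0 reads in all 6 mice.

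*Hnf4a* (ENSMUSG00000017950, chr2:163506808-163572910, plus strand) encodes a nuclear receptor that works with CDX2 in the gut and directs liver genes. It had 30.7, 34.8 and 175 normalized counts in controls 1, 2 and 3 and 226, 274 and 461 in the *MxCDX2* mice. All 3 *MxCDX2* mice were above all 3 controls, but the wild-type control, at 5.35 times the mean of the other controls, came near the lowest of them, which was 1.29 times as high. Controls averaged 80.2 ± 82.2 (SD, n = 3) and *MxCDX2* mice 320 ± 124 (SD, n = 3), for a log2 fold change of 1.99 ± 0.73 (SE, adjusted p = 0.0986, edgeR quasi-likelihood test, Benjamini-Hochberg adjusted; exact permutation test, two-sided p = 0.10). DESeq2 gave 2.01 with an adjusted p of 0.0125, which passed, against 15.7% of genes passing with that tool. The study, which used DESeq2 with the same thresholds, lists *Hnf4a* among its differentially expressed transcription regulators. Without the wild-type control, edgeR gave 3.30 ± 0.42 (SE, adjusted p = 0.00532).

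*Muc13* (ENSMUSG00000022824, chr16:33794037-33819934, plus strand) encodes a membrane mucin of the gut surface and was the member with the most reads. It had 949 normalized counts in the *RsCDX2* control, 628 in the *Mx1Cre* control and 3977 in the wild-type control. The *MxCDX2* mice had 3928, 3574 and 3734. The wild-type control was above all 3 *MxCDX2* mice, while the other controls were far below them. Control and *MxCDX2* averages were 1851 ± 1848 (SD, n = 3) and 3745 ± 177 (SD, n = 3), for a log2 fold change of 1.02 ± 0.65 (SE, adjusted p = 0.312, edgeR quasi-likelihood test, Benjamini-Hochberg adjusted; exact permutation test, two-sided p = 0.40).

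Leaving out the wild-type control moved *Muc13* to 2.27 ± 0.19 (SE, adjusted p = 0.00253), a 4.75-fold difference in mean normalized counts, and it then passed. In that fit 4 members passed upward in place of 2, with *Cdx2* in both counts, against 5.71% of all genes tested in it. The *Muc13* transcript start lies opposite the antisense gene *Gm15657*, with which it shares 5.20% of its 50-base stretches. *Gm15657* had 6, 14 and 74 reads in control and 19, 67 and 42 in *MxCDX2* mice, against 632 or more on *Muc13* in every mouse, and the strand setting of the counting was not given in the sources used here. No 50-base stretch of the other 8 members was shared with another gene.

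The wild-type control also stood apart in other marker genes. The summed level of 5 megakaryocyte markers was 258160 normalized counts in the wild-type mouse, against 31176 and 21819 in the other controls and 9852.5 to 13522 in the *MxCDX2* mice. Of the 5 markers 2 fell, against 9.03% of all tested genes. Stem and progenitor markers summed to 12839 in the wild-type mouse, against 7313.2 and 6748.2 in the other controls and 7497.9 to 8370.3 in *MxCDX2* mice. Of these 5 markers 0 were called, against 13.6% of all tested genes. Among the controls, the wild-type mouse was also lowest for the summed neutrophil (904200), B-cell (14714) and monocyte (42980) markers. It was highest for the markers of stroma and bone, at 52874 against 30602 and 14042. The part of these cell types in the levels of *Hnf4a* and *Muc13* was not tested. Since each control genotype is represented by 1 mouse, genotype and mouse cannot be told apart among the controls.

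**Figure D3:**
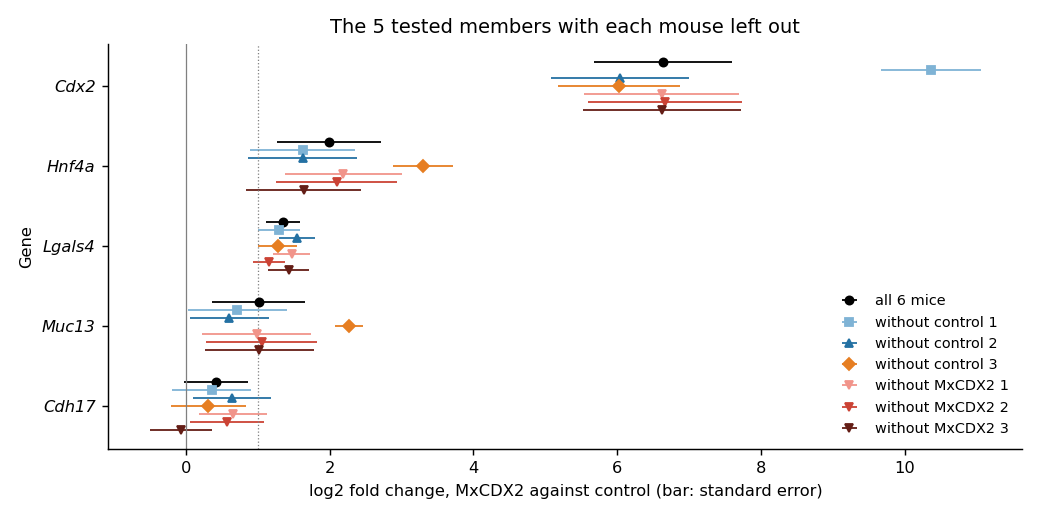
Log2 fold change, *MxCDX2* against control, with its standard error (x axis, dotted line at 1) for the 5 tested members (y axis), with all 6 mice and with each mouse left out. *Lgals4* stays between 1.16 and 1.54, whereas *Hnf4a* and *Muc13* move to 3.30 and 2.27 without control 3 and *Cdx2* to 10.37 without control 1.

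**Figure D4:**
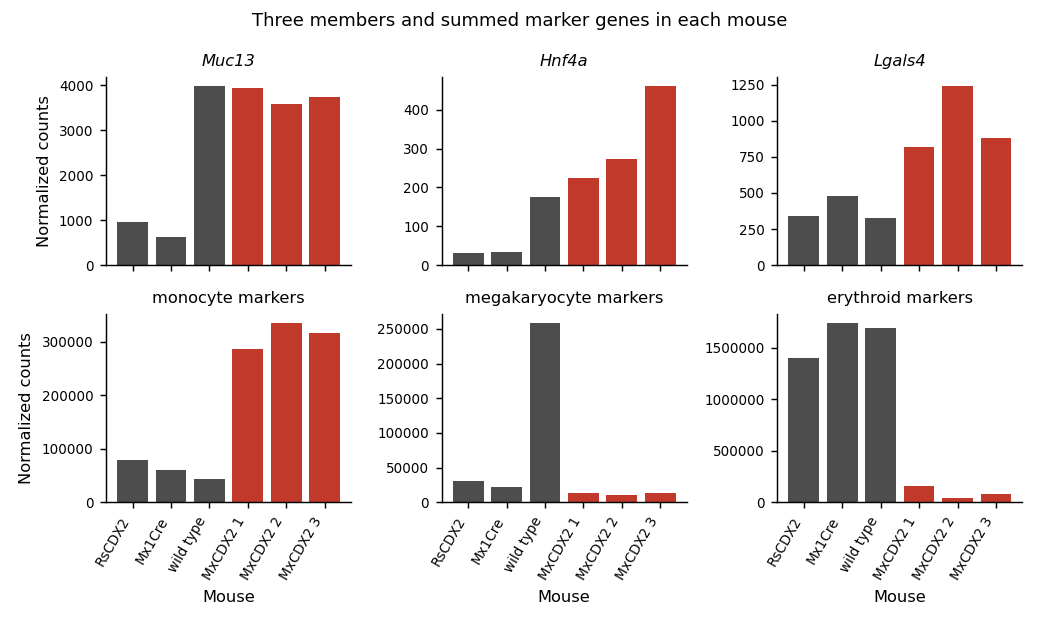
Normalized counts of *Muc13*, *Hnf4a* and *Lgals4* (upper row) and of summed monocyte, megakaryocyte and erythroid markers (lower row) on the y axes in each mouse (x axes), controls in gray and *MxCDX2* mice in red. The wild-type control is as high as the *MxCDX2* mice for *Muc13* and reaches 258160 for the megakaryocyte markers, and the groups do not overlap for *Lgals4* or for any of the 3 marker sums.

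Marker genes of several marrow cell types also differed between the groups, as *Lgals4* did. Of 6 monocyte markers 5 rose and of 6 erythroid markers 6 fell, and both sums separated the groups. Over all tested genes, 4.59% rose and 9.03% fell. Neutrophil markers, of which 3 of 6 fell, summed to 904200 to 1458000 normalized counts in control and 423030 to 573270 in *MxCDX2* mice. The early granule genes *Elane* (-0.31, adjusted p = 0.770, edgeR quasi-likelihood test) and *Mpo* (0.31, adjusted p = 0.725) did not pass, nor did *Camp* (-1.18, adjusted p = 0.0572). In controls 1, 2 and 3, *Elane* had 44871, 37489 and 5981 normalized counts and *Mpo* 76497, 63396 and 14673, lowest in the wild-type mouse. The *MxCDX2* mice had 19589 to 27716 of *Elane* and 57529 to 68472 of *Mpo*. By flow cytometry, the study reported an expansion of immature neutrophils, so that the lower sum does not stand for the whole lineage. B-cell markers, of which 3 of 5 fell, summed to 14714 to 39260 and 3446.5 to 10929. Mast cell and basophil markers, of which 3 of 4 tested fell, summed to 5652 to 6557.6 and 1807.2 to 4050.9. The megakaryocyte sums given above did not overlap either. Of these sums, that of the monocyte markers was higher in *MxCDX2* mice, as *Lgals4* was, and the others were lower. The part of these cells in the rise of *Lgals4* was not tested.

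The remaining gut members had few reads, and *Vil1* and *Krt20* were at or near the limit of detection. *Cdh17* (ENSMUSG00000028217, chr4:11758147-11817895, plus strand), which encodes the liver-intestine cadherin and is a known CDX2 target, had 13, 24 and 17 reads in control and 15, 20 and 45 in *MxCDX2* mice. The groups overlapped, and only *MxCDX2* mouse 3 was above all controls. The log2 fold change was 0.42 ± 0.45 (SE, adjusted p = 0.552, edgeR quasi-likelihood test, Benjamini-Hochberg adjusted; exact permutation test, two-sided p = 0.60), and without that mouse it was -0.07. Its level was 0.0762 to 0.193 RPKM over the 6 mice.

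*Vil1* (ENSMUSG00000026175, chr1:74409376-74435559, plus strand), the gene of the microvillus protein villin, had 2, 6 and 5 reads in control and 6, 13 and 11 in *MxCDX2* mice. In normalized counts the control mice had 2.56 to 5.96 and the *MxCDX2* mice 6.36 to 12.7, without overlap. The gene was removed by the filter on low counts. With every gene of at least 1 count kept, the fitted log2 fold change was 1.12 ± 0.60 (SE, adjusted p = 0.285, edgeR quasi-likelihood test, Benjamini-Hochberg adjusted). The end of *Vil1* overlaps *Usp37* on the opposite strand.

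*Krt20* (ENSMUSG00000035775, chr11:99428403-99438150, minus strand), a keratin gene of differentiated enterocytes, had 4 reads in the wild-type control and 0 in the other 5 mice. All 3 *MxCDX2* mice were therefore without counts, as they were for *Cdx1* and *Cdx4*. Over the gut members, the order of mean level in *MxCDX2* mice per length was *Muc13*, *Lgals4*, *Hnf4a*, *Cdh17*, *Vil1* and *Krt20*. The RPKM ranges of *Cdh17* (0.0781 to 0.193) and *Vil1* (0.0394 to 0.0789) overlapped slightly, whereas the other neighbors in this order did not overlap.

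The wider gut and axial programs were followed through 6 lists of 129 genes, which include the relatives above. Of these, 18 had no reads and 45 were tested, 5 rose, 13 fell and 27 did not pass (edgeR quasi-likelihood test, Benjamini-Hochberg adjusted). The share called was 40.0%, against 13.6% of all tested genes, and the median log2 fold change was -0.46, against 0.00. The lists were chosen with earlier results of these data known, so that these values are a description and not a test. The 13 lower and 5 higher genes stand beside 1443 lower and 734 higher genes over all tested genes, so that lower genes were in excess there too. The erythroid, neutrophil and B-cell marker sums given above were also lower in *MxCDX2* marrow, and their part in these counts was not tested. The counts rest in part on single mice, since 9 genes passed without *MxCDX2* mouse 3 and 11 without *MxCDX2* mouse 2. Some called genes were kept by the filter on low counts only through the group where they were high. Examples are *Slc2a5* and *Hes7* through the *MxCDX2* mice, and *Slc26a3*, *Zg16* and *Dsc2* through the controls.

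Among 25 other gut transcription factor genes and ParaHox genes, 7 had no read in any mouse, namely *Hnf4g*, *Gata5*, *Foxa1*, *Atoh1*, *Pdx1*, *Gsx1* and *Gsx2*. Of the 6 tested, 1 rose and 2 fell, against 4.59% and 9.03% of all tested genes. *Klf4*, which acts in goblet cells and also in monocytes, rose by 2.05 on the log2 scale (adjusted p = 0.0211), passing in 3 of 6 leave-one-out fits. *Creb3l3*, a liver and gut factor, fell by 2.60 (adjusted p = 0.0213, passing in 2 of those 6 fits), and *Tcf7l2*, a Wnt pathway factor of crypts, fell by 1.20 (adjusted p = 0.0464, passing in 1). *Klf5*, a factor of crypt cells, stood at -0.83 (adjusted p = 0.0629) and did not pass.

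Of 32 enterocyte genes, 2 had no reads and 11 were tested, of which 1 rose, 4 fell and 6 did not pass. Over all tested genes, 4.59% rose and 9.03% fell. The one that rose was *Slc2a5*, the gene of the intestinal fructose transporter, with 1, 0 and 2 reads in control and 46, 51 and 89 in *MxCDX2* mice. It rose by 5.66 ± 0.66 (SE, adjusted p = 0.00299), and the pooled, scaled ratio was 57.5 with a 95% interval of 19.4 to 281 for counting error only. *Slc2a5* was tested only because of its reads in the *MxCDX2* mice, so that its call describes these counts. The known Cdx2 target *Car1*, a carbonic anhydrase gene of colon and of red cells, fell by 4.12 (adjusted p = 0.00386), from 12544 to 15141 reads in control mice to 529 to 1497. *Car1* thus went the way of the erythroid markers, whose part in it was not tested.

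*Lct*, the gene of the milk sugar enzyme lactase, had 192, 481 and 248 reads in control and 47, 40 and 45 in *MxCDX2* mice, and fell by 2.89 on the log2 scale (adjusted p = 0.00401). *Slc26a3*, a chloride transporter gene, fell by 2.73 (adjusted p = 0.0137), and *Anpep*, an aminopeptidase gene of brush border and myeloid cells, fell by 1.18 (adjusted p = 0.0453), *Slc26a3* passing in 4 and *Anpep* in 2 of 6 leave-one-out fits. *Slc26a3* was near the limit of detection, with 11, 16 and 12 reads in control and 3, 2 and 1 in *MxCDX2* mice. *Dpp4*, a brush border peptidase gene, had a log2 fold change of 1.00 (adjusted p = 0.0145) and just missed the fold threshold, while *Pls1*, a microvillus actin-bundling gene, stood at -2.58 (adjusted p = 0.0861) with 3020 reads in the wild-type control.

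Few genes of secretory and adherent gut cells had enough reads for a test. Of 22 secretory genes 2 could be tested, 0 rose and 1 fell, against 4.59% and 9.03% of all tested genes. *Zg16*, a goblet cell lectin gene, fell by 3.30 (adjusted p = 0.00539), while *Lyz1* (-1.17, adjusted p = 0.0657) did not pass. The reads of *Zg16* were few, at 27, 38 and 40 in control and 6, 2 and 3 in *MxCDX2* mice. Of 20 adhesion and keratin genes 7 were tested, 0 rose and 4 fell, against the same 4.59% and 9.03%. On the log2 scale *Cdh1*, the gene of E-cadherin, fell by 2.42 (adjusted p = 0.00531) and the desmosome gene *Dsc2* fell by 5.04 (adjusted p = 0.00972). *Dsc2* had 39, 70 and 24 reads in control and 3, 1 and 0 in *MxCDX2* mice. The tetraspanin gene *Tspan8* fell by 3.75 (adjusted p = 0.00847) and the keratin gene *Krt18* fell by 2.22 (adjusted p = 0.0307), *Krt18* passing in 1 of 6 leave-one-out fits. *Cldn15* (0.28, adjusted p = 0.525) and *Tjp3* (0.30, adjusted p = 0.295) did not pass.

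Among 15 axial elongation genes, with which *Cdx* genes work in the embryo, 7 were tested, 1 rose, 1 fell and 5 did not pass. Over all tested genes, 4.59% rose and 9.03% fell. *Hes7*, a repressor of the segmentation clock, had 1, 7 and 19 reads in control and 86, 114 and 118 in *MxCDX2* mice. Kept by the filter on low counts only through the *MxCDX2* mice, it rose by 3.51 on the log2 scale (adjusted p = 0.0150), passing in 4 of 6 leave-one-out fits. *Gdf11*, a TGF-beta family ligand gene, fell by 1.21 (adjusted p = 0.0323), with a pass in 1 of those fits. *Lef1* (-1.84, adjusted p = 0.0605) and *Tbx6* (-1.06, adjusted p = 0.0808) did not pass with edgeR. With DESeq2, *Lef1* (-1.84, adjusted p = 0.00434) and *Tbx6* (-1.07, adjusted p = 0.02475) passed, against 15.7% of genes with that tool. The study lists both among its differentially expressed transcription regulators.

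**Figure D5:**
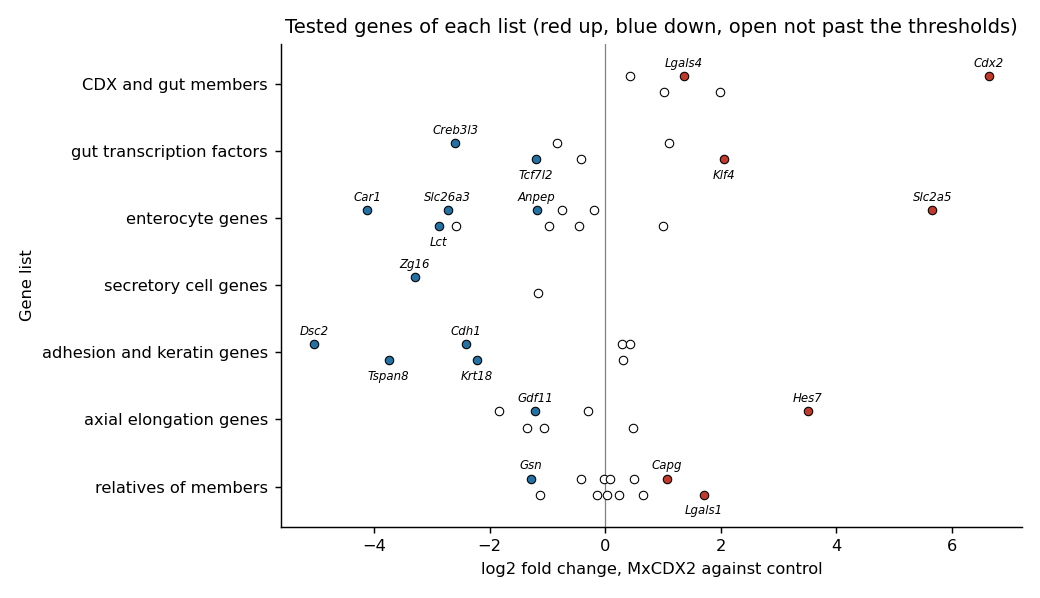
Log2 fold change, *MxCDX2* against control (x axis), of every tested gene of the 9 members and of 6 lists (y axis), red for genes that rose, blue for genes that fell and open for genes that did not pass. *Cdx2*, *Slc2a5* and *Hes7* lie farthest to the right, and all 4 called adhesion and keratin genes lie to the left.

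Some list genes had too few reads to be tested but were counted in 1 group only. Of the 66 such genes with reads, 3 (4.55%) had reads in every *MxCDX2* mouse and in no control, against 1.2% of all untested genes with reads, and 3 (4.55%) had the reverse pattern, against 1.08%. These genes were picked out after their values were seen. The first were *Gata6* (2, 1 and 4 reads), *Isx* (1, 4 and 2 reads) and *Cck* (8, 2 and 20 reads). The second were *Sox9* (1, 4 and 12 reads), *Apoa4* (1, 1 and 8 reads) and *Wnt3a* (1, 6 and 3 reads).

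The genes most like the 2 called members over the 6 mice were found by Pearson's r of log2 CPM, as a description only. *Cdx2* was nearest to *Sdad1* (r = 0.998) and *Pcbp2* (r = 0.997), and 1130 of 15979 genes had an r above 0.9 with it. *Lgals4* was nearest to *Wsb1* (r = 0.998), and 1091 of 15979 genes had an r above 0.9. In a comparison of 3 mice with 3, any gene that separates the groups evenly has a high r, so that the likeness is shared by many genes.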

How the data were processed

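Bone marrow RNA of 6 mice was sequenced as stranded mRNA libraries (TruSeq). Per the labels' processing notes and the methods, reads were demultiplexed with bcl2fastq (version 2.17.1.14), aligned to GRCm38 with STAR (version 2.5) and counted per gene with HTSeq (version 0.6.1) on Ensembl release 90. The authors deposited raw counts, without normalization, for 39179 mouse genes. The strand setting of the counting was not given in the sources used here. Reads on no gene were 9.22% to 14.1% and ambiguous reads 2.99% to 3.16% of the counts plus these rows, and both were left out. Symbols were taken from GENCODE M21, where 37693 identifiers were found. *Lgals6*, *Muc16* and *Ahsp* are not analysed here.

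The counts were fitted with edgeR 4.0.16 under R 4.3.3 (TMM, filterByExpr, glmQLFit and glmQLFTest). P-values of 15980 tested genes were adjusted by Benjamini-Hochberg, and the thresholds were 1 on the log2 fold change and 0.05 on the adjusted p. The standard error is the log2 fold change divided by the root of the F statistic. Normalized counts were scaled to the mean TMM-adjusted library. DESeq2 1.42.0, other scalings and filters, an adjusted p below 0.01 and each mouse left out were alternatives. The smallest two-sided p of the exact permutation test over 3 and 3 mice is 0.10. Tests were checked on simulated counts. No 2 libraries agreed within sampling noise. The labels do not say more of the mice than that they are separate, so p-values measure the spread between these animals. Intervals cover counting error only, since reads are not independent molecules.

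The members and lists were chosen with earlier results of these data known. Named are all members, the neighbors with a test, up to 8 genes past the thresholds per list and the 2 of highest level that did not pass, and the 5 genes most like each member past the thresholds, of which the nearest are printed. A gene that this rule names is not reported here. Python 3.11.15 with scipy 1.17.1, numpy 2.4.6, pandas 2.3.3 and matplotlib 3.10.9 made the tables and figures.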

Additional observations from a re-analysis of the deposited data

How the results depend on the processing

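Over all genes, 2177 passed, 1205 to 2406 with 1 mouse left out (fewest without *MxCDX2* mouse 3) and 1043 at an adjusted p below 0.01. Of the members, 2 passed, 2 to 4 with 1 mouse left out (4 without the wild-type control), 1 with at least 10 counts required in every mouse, where *Cdx2* is removed, and 1 at an adjusted p below 0.01, which *Lgals4* misses. Of the 6 lists, 18 genes passed, 29 with DESeq2 (8 higher and 21 lower), 10 at an adjusted p below 0.01 and 9 to 18 with 1 mouse left out (9 without *MxCDX2* mouse 3 and 11 without *MxCDX2* mouse 2). Of the *Cdx* neighbors, 3 passed, and 2 to 3 with 1 mouse left out. Direction was reversed for *Cdh17* without *MxCDX2* mouse 3 (-0.067, within -0.067 to 0.6573 over the mice left out) and for *Pan3* without the wild-type control (-0.0563, within -0.0563 to 0.2516), neither of which was called. The cause was not tested. For 44 single genes under 12 alternatives, 453 of 521 values kept direction and side of the threshold, 47 no longer passed and 19 newly passed. Scaling by total counts only moved the median log2 fold change of all genes from 0.00 to 0.12. No paired analysis was possible because the labels give the control mice no number that ties them to an *MxCDX2* mouse. Depth limits *Cdx1*, *Cdx4*, *Krt20*, *Vil1* and *Cdh17*, which had at most 45 reads in a mouse.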
